A study of Mus musculus with 5 samples.

Results

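Genes of mitosis, the kinetochore and condensin were followed in cultures labelled as CD8 T cells of 1 antigen specificity, with no sort after culture named. The set holds 52 genes, chosen by name for their part in chromosome condensation, spindle assembly, chromosome attachment, anaphase and cytokinesis. They were chosen with earlier results of these data known, so their counts beside those of all genes describe the set and do not test it. Of these, 51 were measured by a probe set (the group of short probes that reads 1 transcript) annotated to exactly 1 gene symbol, and each is represented by its brightest such probe set; Ccnb1 was not analysed here. In all, 18193 genes had a probe set of this kind. The filter on dim signals kept 12446 of them, all 51 measured mitosis genes among them. The tested cells were G9C8 clone cells, a cytotoxic line grown in culture, of which 3 frozen vials were thawed. All vials come from this 1 clone. They were compared with splenocytes of 2 NOD.G9C8 transgenic mice aged 4 to 8 weeks, on the NOD/LtJ background, which carry the T cell receptor of the clone. Both kinds of culture were stimulated for 3 days with Insulin B peptide (10 µg/ml) and kept 2 more days in IL2 (5 IU/ml), and RNA was taken at the end of that rest. Each vial and each mouse gave 1 Affymetrix array, so that 3 clone arrays stood against 2 transgenic arrays.

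A dividing cell enters mitosis when cyclin B binds the kinase CDK1 and Cdc25 phosphatases remove the inhibitory phosphates. Condensin then compacts the chromosomes, kinetochores built on centromeres catch spindle microtubules, and the spindle checkpoint holds back the anaphase-promoting complex, a ubiquitin ligase, until every chromosome is attached. Many of these transcripts accumulate in G2 and mitosis and are low in resting cells, so that in activated T cells they are widely read as markers of proliferation.

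Signals are linear array units as deposited, scaled to 1 common trimmed mean of 500 on every array. The median probe set read 132.6, 132.3 and 133.0 on the 3 clone arrays, against 140.7 and 141.9 on the transgenic pair. Differences are clone minus transgenic on the log2(signal + 20) scale, which understates those of dim genes, with limma p-values adjusted over all genes tested by Benjamini-Hochberg. A gene is called at an adjusted p under 0.05. Markers of the labelled cell type were present: the 5 CD8 T cell markers summed to 34071 to 38043 on the clone arrays and 46431 to 50799 on the transgenic arrays, with Cd2 (-1.75), Cd8a (-0.68) and Cd8b1 (-0.65) called lower in clone and none higher. Cd4, at 32.1 to 44.2 in clone and 39.1 to 50.6 in transgenic cells, did not reach the filter (a mean signal of 88.21). The labels name no sort after culture. Of 10 measured myeloid markers 6 were lower and 1 higher in clone, and their signals summed to 7525 to 8671 on the clone arrays and 9148 to 11835 on the transgenic arrays. Cst3, the higher one, made up most of the clone sum, with a mean of 6251 in clone and 3265 in transgenic cells. The lower ones included Lyz2, at 279 in clone and 4523 in transgenic cells (-3.90), Tyrobp, at 23.0 in clone and 474 in transgenic cells (-3.50), and Cd14, at 40.4 in clone and 396 in transgenic cells (-2.77). The 6 measured B cell markers summed to 804 to 1153 on the clone and 1540 to 1685 on the transgenic arrays, with 1 lower in clone, Cd79b, at 26.7 in clone and 624 in transgenic cells (-3.92, adjusted p = 0.000164). Natural killer markers (2 measured) summed to 128 to 140 in clone and 57.8 to 108 in transgenic cells, and erythroid markers (2 measured) to 55.4 to 119 in clone and 139 to 143 in transgenic cells. No marker was listed at 0. The part of these cells in the differences below was not tested. In such bulk RNA, fewer dividing cells and less of a transcript per dividing cell cannot be told apart.

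The second clone array stood apart from the other clone arrays in these genes. It was the lowest of the 3 clone arrays for all 51 mitosis genes, against 34.7% of all genes tested. The median deviation from the mean of the other 2 clone arrays was -0.72 over the mitosis genes, with a range of -1.11 to -0.26, and 0.01 over all genes. A deviation under -0.5 was seen in 44 of the 51, or 86.3%, compared with 6.34% of all genes. Set against the transgenic mean, the median mitosis gene stood at 1.04 on clone array 1, 0.18 on clone array 2 and 0.90 on clone array 3. The transgenic arrays themselves lay close together, at -0.08 and 0.08. Clone arrays 1 and 3 each exceeded both transgenic arrays in 49 of the 51 genes and the second in 31, where 43.0% of all genes tested have the second clone array above both transgenic ones. Between the transgenic arrays, 41 of the 51 genes were higher on the second, by a median of 0.16, compared with 51.5% of all genes. Clone arrays 1 and 3 were the lowest clone array in 33.4% and 31.9% of all genes and in none of these 51. Each clone array is 1 culture, so the deviation of the second has no test, and results are therefore given with and without it. As it was the lowest clone array for all 51 genes, leaving it out must raise every difference. The calls made without it are therefore no independent support.

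**Figure D1:**
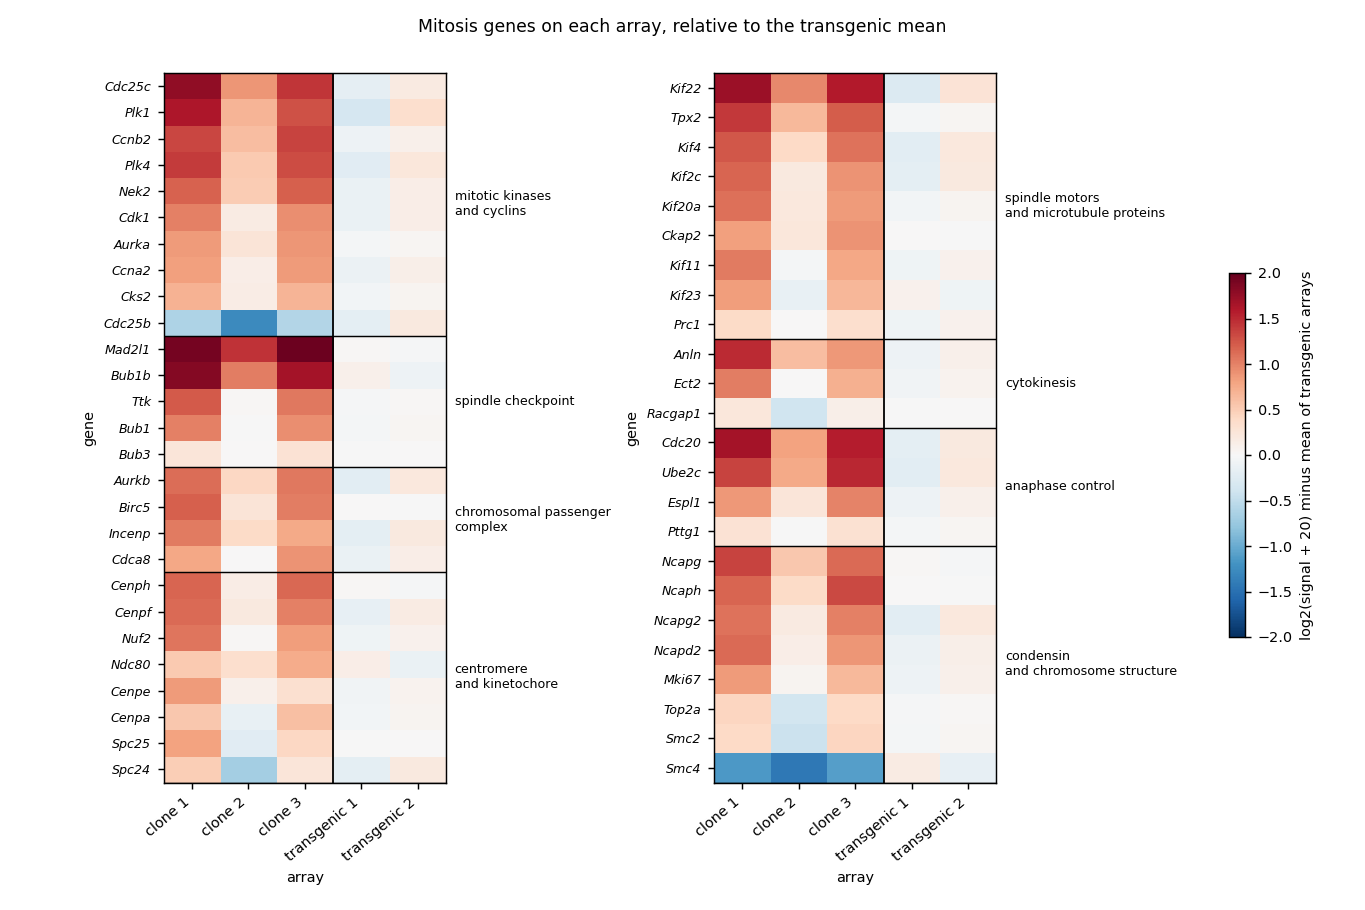
Each cell gives the log2(signal + 20) of 1 gene on 1 array minus the mean of the 2 transgenic arrays, for the 51 measured mitosis genes in 8 roles; red is above and blue below that mean. Wherever clone 1 and clone 3 are red, the clone 2 column is a paler red, near white or blue. Among those rows it is deepest blue for Spc24 (-0.69). The rows of Smc4 and Cdc25b are blue on every clone array.

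Most of the mitosis genes lay higher in clone. Of the 51, 29 were called higher (22.0% of all 12446 genes were), 2 were called lower (21.7% of all genes) and 20 were not called (43.8% of all genes were called in either direction). The median difference was 0.70, against -0.01 over all genes tested, and 48 of the 51 differences were positive (49.4% of all genes). At least 2-fold higher and called were 11 genes (6.84% of all genes): Mad2l1, Bub1b, Kif22, Cdc25c, Cdc20, Ube2c, Plk1, Ccnb2, Tpx2, Plk4 and Ncapg. The 2 lower genes were Smc4, a core subunit of condensin, and Cdc25b, an activator of CDK1. All 3 clone arrays lay above both transgenic arrays for 31 of the 51 genes (31.9% of all genes) and below them for 2 (32.6% of all genes). Without the second clone array, 47 were called higher (22.1% of all genes in that fit), 2 lower (22.0%) and 2 were not called, Spc24 and Racgap1, and the median difference was 0.97.

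**Figure D2:**
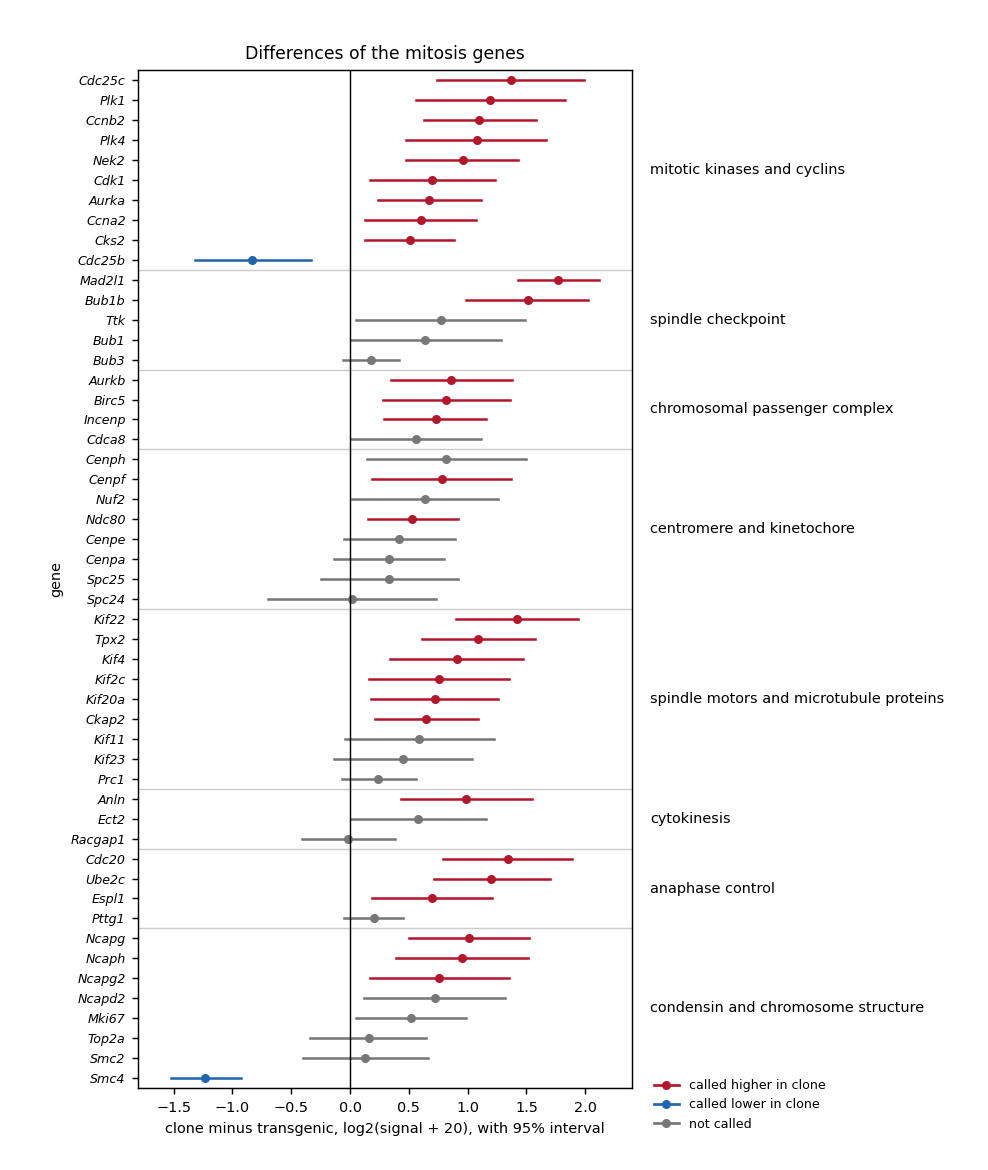
Points give the difference of each of the 51 mitosis genes, clone minus transgenic on the log2(signal + 20) scale, and bars its 95% confidence interval from the fit, unadjusted for the number of genes; red is called higher in clone, blue called lower and grey not called. Most intervals lie right of 0, Mad2l1 lies farthest right at 1.77 and Smc4 farthest left at -1.23.

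Promoters of genes that peak in G2 and mitosis are known for a cell cycle homology region, with the core TTTGAA or the variant TTTAAA, and for CCAAT boxes, which bind the factor NF-Y. RefSeq promoters of the mouse assembly GRCm38.p6, from 250 bases before to 50 after the start of transcription, were at hand for 44 of the 52 genes, in 47 windows. Promoters of 5 genes are printed here from 120 bases before to 30 after the start, 5′ to 3′ on the strand of the gene, with every match to these letters on either strand in capitals. They show 3 of the genes with large differences that hold both elements near the start (Ccnb2, Cdc20 and Ube2c), the gene with the largest difference, which holds none (Mad2l1), and 1 of the 2 lower genes (Cdc25b). Ccnb2 is at chr9:70421525-70421674, minus strand; Cdc20 at chr4:118437314-118437463, minus strand; Ube2c at chr2:164769809-164769958, plus strand. Mad2l1 is at chr6:66535101-66535250, plus strand, and Cdc25b at chr2:131186828-131186977, plus strand.
Ccnb2: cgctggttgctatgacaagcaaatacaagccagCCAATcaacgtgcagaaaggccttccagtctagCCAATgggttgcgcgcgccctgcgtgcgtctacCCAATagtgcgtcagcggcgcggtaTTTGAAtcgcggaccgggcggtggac
Cdc20: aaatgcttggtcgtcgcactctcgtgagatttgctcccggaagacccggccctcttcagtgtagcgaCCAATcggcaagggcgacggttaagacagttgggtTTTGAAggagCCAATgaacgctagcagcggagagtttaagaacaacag
Ube2c: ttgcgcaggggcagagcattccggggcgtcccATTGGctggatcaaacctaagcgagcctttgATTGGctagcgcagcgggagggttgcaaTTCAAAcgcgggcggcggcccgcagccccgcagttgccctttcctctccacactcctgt
Mad2l1: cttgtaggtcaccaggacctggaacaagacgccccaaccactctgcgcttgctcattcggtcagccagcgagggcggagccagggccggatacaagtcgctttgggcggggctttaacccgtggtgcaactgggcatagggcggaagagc
Cdc25b: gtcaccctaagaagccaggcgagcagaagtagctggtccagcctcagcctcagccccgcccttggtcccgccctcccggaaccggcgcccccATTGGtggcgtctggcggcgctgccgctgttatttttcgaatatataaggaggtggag

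In Ccnb2 the TTTGAA nearest the start begins 5 bases into the transcript, counting its first base as 1, and 3 CCAAT boxes begin 87, 54 and 21 bases before the start. In Cdc20 the TTTGAA begins 18 bases before the start, and in Ube2c its reverse complement TTCAAA 29 bases before it. TTTGAA on either strand occurred in 34 of the 47 windows, 72.3%, against 17.9% of all 32851 promoters. Within 50 bases either side of the start it occurred in 29, or 61.7%, against 4.94%. CCAAT on either strand occurred in 78.7% of the windows of mitosis genes and in 37.4% of all promoters, and TTTAAA in 21.3% of these windows and 13.2% of all promoters. Both TTTGAA and CCAAT were present in 63.8% of these windows and 6.95% of all promoters. Matches of different motifs overlapped at 1 place in the 47 windows. Among the 23 genes called higher that have a window, TTTGAA was found in 73.9%, CCAAT in 65.2% and both in 56.5%. A match is a run of letters and no measured binding site.

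Kinases, cyclins and phosphatases of mitotic entry were higher in clone with 1 exception. Of 10 tested, 9 were called higher and 1 lower, with a median difference of 0.83. Cdc25c encodes a phosphatase that activates CDK1 at the onset of mitosis. Its signals were 441, 228 and 342 on the clone arrays, against 99.0 and 132 on the transgenic arrays, a difference of 1.37 (SE 0.27, adjusted p = 0.00397, limma). Plk1, the polo-like kinase of spindle assembly and mitotic exit, gave 1704, 881 and 1332 in clone and 426 and 685 in transgenic cells, a difference of 1.19 (SE 0.28, adjusted p = 0.00834). Ccnb2, a B-type cyclin, gave 3884, 2373 and 3939 in clone and 1427 and 1645 in transgenic cells, a difference of 1.10 (SE 0.21, adjusted p = 0.00293). In all 3 genes the second clone array was the lowest of its group and still exceeded both transgenic arrays. Cdc25b, a relative of Cdc25c that acts on CDK1 in G2, ran the other way. It gave 1035, 644 and 1051 in clone against 1392 and 1815 in transgenic cells, a difference of -0.83 (SE 0.22, adjusted p = 0.0148), with no overlap between the groups. The low second clone array adds to that difference, which was -0.60 (adjusted p = 0.00953) without it.

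The other 6 were called higher with differences of 0.51 to 1.08: Ccna2, the cyclin of S phase and G2; Cdk1; Plk4, the kinase of centriole duplication; Aurka, which matures the spindle poles; Nek2, a centrosome kinase; and Cks2, a small CDK-binding protein. The number called higher was 5 without clone array 1, without clone array 3 or without the second transgenic array, and 2 without the first transgenic array, those 2 being Ccnb2 and Cdc25c. Plk1 had an adjusted p of 0.0801 in that last fit (difference 0.86). The call of Cdc25b ended without the second transgenic array (-0.64, adjusted p = 0.121).

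The spindle checkpoint held the 2 largest differences of the whole set. Mad2l1, whose product MAD2 binds CDC20 and blocks the anaphase-promoting complex, gave 7131, 5146 and 7318 in clone, against 1901 and 1843 in transgenic cells. The groups were far apart, with a difference of 1.77 (interval at 95% 1.43 to 2.12; adjusted p = 3.94e-05), or 3.42-fold. Bub1b, encoding BUBR1, a further part of the same inhibitor, gave 1553, 874 and 1371 in clone and 454 and 389 in transgenic cells, a difference of 1.51 (0.99 to 2.02, adjusted p = 0.000868). Bub3, their WD40 repeat partner, gave 5470, 4637 and 5642 in clone and 4587 and 4640 in transgenic cells. Its second clone array lay between the transgenic arrays, and its difference of 0.18 (-0.06 to 0.42) was not called (adjusted p = 0.194). The checkpoint kinase genes Ttk and Bub1 had differences of 0.77 and 0.64 and were not called (adjusted p = 0.0811 and 0.0929); on the second clone array both lay within the transgenic range. Without that array all 5 checkpoint genes were called higher, Bub3 with a difference of 0.27 (adjusted p = 0.0295), whereas 2 were called when any one of the other arrays was left out.

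The chromosomal passenger complex, which corrects wrong attachments and later guides cytokinesis, had 3 of its 4 genes called higher. Aurkb, its kinase, gave 1361, 824 and 1301 in clone and 528 and 714 in transgenic cells, a difference of 0.86 (SE 0.22, adjusted p = 0.0139). The other probe set of Aurkb above the filter gave 1.85, and both are of a cross-hybridizing type. Birc5, encoding survivin, gave 5706, 2974 and 5051 in clone and 2490 and 2483 in transgenic cells, a difference of 0.82 (SE 0.24, adjusted p = 0.0217). Incenp, the scaffold, gave 3915, 2494 and 3219 in clone and 1655 and 2183 in transgenic cells, a difference of 0.73 (SE 0.19, adjusted p = 0.0142). The probe set of Incenp is also of a cross-hybridizing type. Its other 3 gave 0.74, 0.35 and 0.24, and only that at 0.74 was called higher when tested on its own. No clone array of Aurkb, Birc5 or Incenp fell to the transgenic level, though the second came nearest. Cdca8, encoding borealin, gave 2722, 1580 and 2974 in clone against 1441 and 1732 in transgenic cells, so that the second clone array fell between the transgenic ones, and it was not called (0.56, adjusted p = 0.0949). That probe set is of a cross-hybridizing type; the difference was 1.44 (adjusted p = 0.00143) with such probe sets left out and 0.89 (adjusted p = 0.0167) for the mean over probe sets, both called. Without the second clone array all 4 were called, Cdca8 with a difference of 0.84 (adjusted p = 0.000820). Without the first transgenic array none of the 4 was (adjusted p of 0.0945 for Birc5, 0.117 for Aurkb and 0.125 for Incenp). Birc5 also lost its call when clone array 1 (adjusted p = 0.0586), clone array 3 (0.0657) or transgenic array 2 (0.0919) was left out.

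Of the centromere and kinetochore genes, 2 of 8 were called higher, near the share of 22.0% over all genes. The median of these 8 genes, 0.48, was the lowest of the 8 roles. Cenpf, a large outer kinetochore protein that accumulates in G2, gave 1760, 912 and 1624 in clone and 710 and 891 in transgenic cells, a difference of 0.78 (SE 0.26, adjusted p = 0.0384). Here the second clone array exceeded the higher transgenic one only narrowly. Ndc80, which binds microtubules at their ends, gave 501, 442 and 588 in clone and 381 and 310 in transgenic cells, a difference of 0.53 (SE 0.17, adjusted p = 0.0315), without overlap. Cenpa, the histone H3 variant that marks centromeres, gave 4047, 2501 and 4200 in clone and 2660 and 2891 in transgenic cells. Its second clone array lay below both transgenic ones and it was not called (0.33, adjusted p = 0.229). The other uncalled genes had differences of 0.02 to 0.82. They were Nuf2, Spc24 and Spc25, the partners of Ndc80 in its complex, Cenph of the inner kinetochore and the kinesin Cenpe. Cenpe, at 0.42, has another probe set of nearly the same mean signal (664 against 666), which gave 1.82 and was called higher when tested on its own. Neither Cenpf nor Ndc80 was called when clone array 1, clone array 3 or either transgenic array was left out (adjusted p of 0.0526 to 0.211), and without the second clone array 7 of the 8 were, all but Spc24.

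Motors and microtubule proteins of the spindle were called higher in 6 of 9, with a median of 0.72. Kif22, a chromokinesin that pushes chromosome arms toward the equator, gave 9273, 5535 and 8528 in clone and 2339 and 3411 in transgenic cells. Its difference was 1.42 (SE 0.23, adjusted p = 0.00131), and its other 2 probe sets gave 1.33 and 1.54. Tpx2, which nucleates spindle microtubules and activates Aurora A, gave 1431, 828 and 1236 in clone and 508 and 539 in transgenic cells, a difference of 1.09 (SE 0.21, adjusted p = 0.00314). Its other 3 probe sets above the filter, all dimmer, had differences of -0.02 to 0.23, and over all 4 its mean difference was 0.37 and not called (adjusted p = 0.112). Kif4, a chromokinesin on the X chromosome, gave 1227, 679 and 1106 in clone and 436 and 595 in transgenic cells, a difference of 0.91 (SE 0.25, adjusted p = 0.0167). For these 3 genes no array of one group entered the range of the other. Prc1, which bundles the central spindle, gave 1720, 1311 and 1666 in clone and 1239 and 1387 in transgenic cells, with the second clone array inside the transgenic range, and was not called (0.24, adjusted p = 0.189). With cross-hybridizing probe sets left out, its difference was 0.63 and called (adjusted p = 0.0381). Kif20a, Kif2c and Ckap2 were called higher with differences of 0.65 to 0.76, and Kif11 and Kif23 were not called (0.59 and 0.45). Further probe sets differed from these: 3 of Kif2c gave -0.09 to 0.68, 2 of Kif11 gave -0.13 and -0.03, and 1 of Kif23 gave 1.18. Over all genes, the share called higher was 22.1% without the second clone array, 19.3% without clone array 1 and 18.8% without clone array 3. The count of these spindle genes called higher was 9 without the second clone array. It was 3 without the second transgenic array and 2 without any one of the other arrays, Kif4 losing its call in each of those (adjusted p of 0.0520 to 0.133).

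Genes of cytokinesis were divided. Anln encodes anillin, which organises the contractile ring. It gave 776, 415 and 494 in clone and 245 and 282 in transgenic cells, a difference of 0.99 (SE 0.24, adjusted p = 0.0108), without overlap; the call ended without the first transgenic array (0.90, adjusted p = 0.0763). Racgap1, a subunit of centralspindlin, gave 2203, 1422 and 2046 in clone and 1874 and 1891 in transgenic cells, so that the clone arrays lay on both sides of the transgenic ones. Its difference of -0.02 (95% confidence interval -0.41 to 0.38) was not called (adjusted p = 0.945), nor was it without the second clone array (0.17, adjusted p = 0.186), and its second probe set gave -0.04. Ect2, the exchange factor that centralspindlin recruits, had a difference of 0.58 (adjusted p = 0.0952), and it joined Anln among the called genes when the second clone array was left out.

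Anaphase control had 3 of 4 genes called higher. Cdc20, the activator of the anaphase-promoting complex and the target of MAD2, gave 7008, 3845 and 6561 in clone and 1924 and 2526 in transgenic cells, a difference of 1.34 (SE 0.24, adjusted p = 0.00233). Ube2c, the ubiquitin-conjugating enzyme of that complex, gave 6069, 4025 and 6811 in clone and 2043 and 2762 in transgenic cells, a difference of 1.20 (SE 0.22, adjusted p = 0.00230). Both groups are well apart in these genes, whose promoters are printed above. Espl1, encoding separase, the protease that cuts cohesin, gave 658, 423 and 722 in clone and 327 and 382 in transgenic cells, a difference of 0.70 (SE 0.22, adjusted p = 0.0325). Pttg1, encoding securin, the inhibitor of separase, gave 7798, 6352 and 7842 in clone and 6205 and 6539 in transgenic cells. Its groups overlapped at the second clone array, and the difference of 0.20 (-0.05 to 0.45) was not called (adjusted p = 0.185). Its brightest probe set carries the mark of possible cross-hybridization; with probe sets so marked left out, the difference was 0.90 and called (adjusted p = 0.00507). Cdc20 and Ube2c were called whichever array was left out, whereas Espl1 was called in 1 of these 5 fits, that without the second clone array (adjusted p of 0.0760 to 0.176 in the other 4).

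Condensin and chromosome structure genes went in both directions. Smc4 encodes an ATPase that pairs with SMC2 in both condensin complexes. It gave 5750, 4718 and 5894 in clone, against 14229 and 11396 in transgenic cells. Every clone array lay far below both transgenic arrays, with a difference of -1.23 (interval at 95% -1.52 to -0.93; adjusted p = 0.000135), or 2.34-fold lower in clone. Its other 2 probe sets gave -1.08 and -1.07, and leaving out each array in turn gave -1.39 to -1.07. The non-SMC subunits of condensin I ran opposite to it. Ncapg gave 923, 519 and 796 in clone and 356 and 346 in transgenic cells, a difference of 1.01 (SE 0.22, adjusted p = 0.00639), and Ncaph, the kleisin that closes the ring, gave 2062, 1187 and 2304 in clone and 917 and 904 in transgenic cells, a difference of 0.95 (SE 0.24, adjusted p = 0.0133). In both, the lowest clone array exceeded the transgenic ones. The dimmer probe set of Ncapg gave 0.71 and was not called when tested on its own. Ncapg2 of condensin II was called higher (0.76, adjusted p = 0.0415), although its second clone array, at 1458, lay just under the second transgenic array, at 1479, and Ncapd2 of condensin I was not called (0.72, adjusted p = 0.0556).

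Smc2 was read differently by its probe sets. The brightest, with 3364, 1894 and 3437 in clone and 2482 and 2626 in transgenic cells, had a difference of 0.13 (adjusted p = 0.682), whereas the other 4 had differences of 0.68 to 1.76. When every probe set above the filter was tested on its own, 3 of those 4 were called higher. Top2a, the topoisomerase that untangles sister chromatids, gave 6085, 3492 and 5970 in clone and 4428 and 4584 in transgenic cells, with the second clone array below both transgenic arrays, and was not called (0.16, adjusted p = 0.595). Mki67, the Ki-67 proliferation marker, had a difference of 0.52 (adjusted p = 0.0698); it and Smc2 are described after their values were seen. Without the second clone array the difference of Top2a was 0.42 (adjusted p = 0.00411). In that fit 7 of the 8 genes were called higher and Smc4 alone lower, whereas without the first or second transgenic array 1 was called higher, Ncapg. Ncaph had an adjusted p of 0.0647 and 0.0662 in those fits, and its dimmer probe set a difference of 0.60 (adjusted p = 0.0633 without cross-hybridizing probe sets).

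Over all probe sets above the filter, 30 of the 51 genes had several, 103 in all. Of these, 51 were called higher (21.1% of all probe sets tested in the same way), 4 lower (22.5%) and 48 were not called. None of the further probe sets was called in the direction opposite to the brightest one of its gene. Of the 20 uncalled genes, 6 had another probe set that was called higher: Cdca8, Cenpe, Kif23, Prc1, Pttg1 and Smc2. The brightest probe set was of a cross-hybridizing type in 12 of the 51 genes.

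Neighbouring parts of the cell cycle are given for comparison, with the share of all genes called higher at 22.0% and lower at 21.7%. Of 49 further mitotic genes tested, 18 were called higher and 3 lower, with a median of 0.54. The largest differences were those of Pimreg (1822 on average in clone and 362 in transgenic cells; 2.23, adjusted p = 0.000128) and Troap (439 in clone and 112 in transgenic cells; 1.76, adjusted p = 0.00213), both mitotic proteins, and the 3 lower genes were Depdc1b (-0.97), Zw10 (-0.61) and Cenpq (-0.50). Genes of DNA replication and S phase were called higher in 7 of 32, near the share of all genes, and lower in none. Their median was 0.29, and the clamp loader subunits Rfc3 (1.61) and Rfc4 (1.01) had the largest differences. The second clone array was the lowest clone array in 47 of the 49 mitotic genes and in 30 of the 32 replication genes, by medians of -0.74 and -0.58. Without it, 35 and 16 were called higher (22.1% of all genes in that fit). Without the first transgenic array, the medians of the 2 lists were 0.48 and 0.22. Replication genes called higher numbered 4 without clone array 1 (19.3% of all genes) and 4 without clone array 3 (18.8%).

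**Figure D3:**
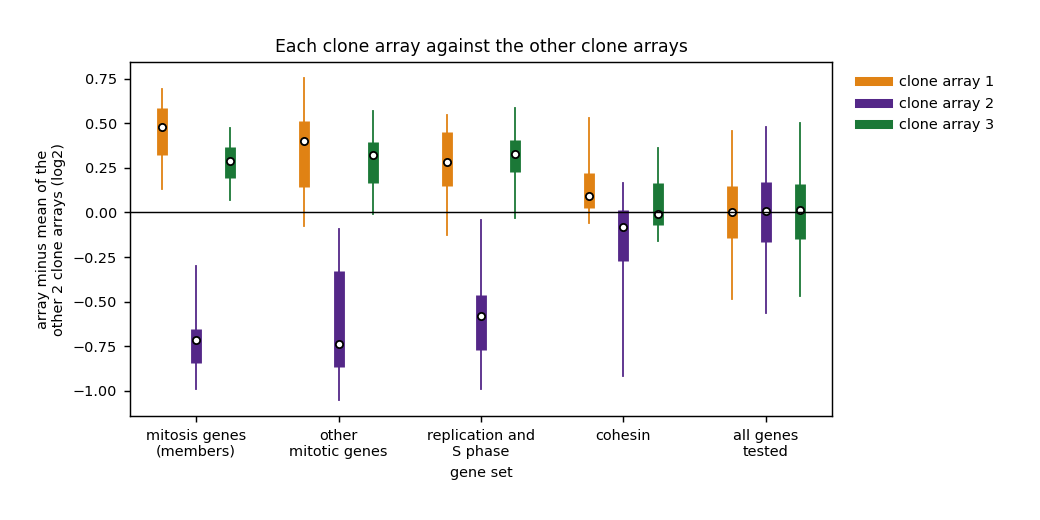
For each gene set and each clone array, the circle is the median, the thick bar the middle 50% and the thin line the 5th to 95th percentile over genes of the array's log2(signal + 20) minus the mean of the other 2 clone arrays. The second clone array lies below the others for mitosis genes (median -0.72), other mitotic genes (-0.74) and replication genes (-0.58), and near 0 for cohesin (-0.08) and all genes (0.01).

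Cohesin is the ring that condensin's relatives SMC1 and SMC3 form around sister chromatids. Of 13 genes of cohesin and its partners, 7 were lower, 2 higher and 4 not called, with a median of -0.25. Smc1a (0.08) and Smc3 (-0.08) themselves were not called, nor was Rad21 (0.14). The lower genes were Stag1, Stag2, Pds5a, Pds5b, Wapl, Mau2 and Esco1. All of these are named after their values were seen. The 2 higher ones were Esco2 (1.14) and Cdca5 (1.10), which establish and protect cohesion in dividing cells, and neither was called without the first transgenic array. Of 17 genes of the anaphase-promoting complex and its partners, 6 were higher, 1 lower and 10 not called, among them the conjugating enzyme Ube2s (1.19) and the subunit Anapc7 (-0.79); 3 were higher without the first transgenic array. Among 13 transcription regulators of mitotic genes, E2f4 (0.69) was higher and Rbl1 (-0.61) and Nfyb (-0.32, named after its values were seen) were lower, and 10 were not called; without the second clone array 4 were higher, and 0 to 2 were lower when 1 array was left out. Among 11 other regulators of mitotic entry and phosphatases, not all of them brakes, 4 were higher and 3 lower. The largest differences were in Arpp19 (0.92), an inhibitor of the phosphatase PP2A, and Cdc14b (-1.44). The higher count was 2 in 4 of the 5 fits that left out an array, the exception being the fit without the second clone array.

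Of the 2 remaining condensin subunits, Ncaph2 of condensin II was higher (0.38, adjusted p = 0.0156), a call that ended without either transgenic array, and Ncapd3, named after its values were seen, was not called. Among the CDK inhibitors, 4 of 7 passed the filter. Cdkn2c, encoding p18, was higher (3612 on average in clone and 1398 in transgenic cells; 1.36, adjusted p = 8.57e-05), whereas Cdkn1b, encoding p27, was lower (4046 in clone and 5235 in transgenic cells; -0.38, adjusted p = 0.0237), as was Cdkn2d (-0.37, named after its values were seen); 0 to 2 of these genes were called lower when 1 array was left out.

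The number of mitosis genes called depended on single arrays. Leaving out the second clone array gave 47 higher, clone array 1 or 3 16 each (19.3% and 18.8% of all genes in those fits), the first transgenic array 9 (15.2%) and the second transgenic array 16 (16.5%). The shares of all genes called lower were 19.7%, 19.5%, 14.2% and 15.1% in the same order. The 10 genes called in every one of the 5 fits were Mad2l1, Bub1b, Kif22, Cdc20, Cdc25c, Ube2c, Ccnb2, Tpx2, Ncapg and Smc4. The 2 lower genes were called in all of these fits except that Cdc25b lost its call without the second transgenic array.

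**Figure D4:**
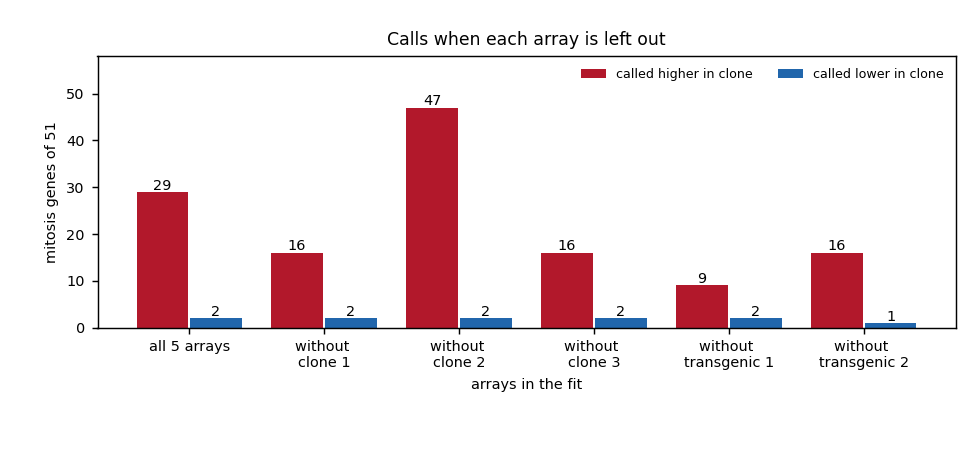
Bars count the mitosis genes, of 51, called higher (red) or lower (blue) in clone at an adjusted p under 0.05 with all 5 arrays and with each array left out. The higher count is 29 with all arrays, 47 without clone array 2, and 9 to 16 without any one of the others.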

How the data were processed

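Total RNA of 5 cultures was labelled as biotinylated cRNA from 8 µg and hybridised to one-colour Affymetrix mouse arrays, per the labels' protocols. The authors deposited 1 linear intensity per probe set, made with GCOS, per the submitters' processing notes; its version is not given in the sources used here. They were scaled before deposit (equal 2% trimmed means) and used as deposited; detection calls were not used here. Precision is limited by the number of arrays; p-values measure only how vials of a single clone and 2 mice differ among themselves.

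Of 45101 probe sets, 64 controls were left out; 34945 carried 1 gene symbol, 932 several and 9160 none. Values were taken as log2(signal + 20), kept at a mean signal from the 40th percentile (88.21), with the brightest probe set per gene. Groups came from the sample titles and were fitted with limma 3.58.1 under R 4.3.3 (two-sided lmFit and trended eBayes, 3 residual degrees of freedom). The fit was tried on simulated data with noise independent between genes and 200 changed genes. It recovered 43.4% of 1.5-fold, 76.4% of 2-fold and 97.8% of 4-fold changes, and 5.55% of its calls were false. The simulation held neither the shared deviation of the second clone array nor as many changed genes as were called here. It cannot show how the fit behaves under those conditions. The members and lists were chosen with earlier results of these data known. Per role, the rule names up to 3 called genes of largest difference, every lower gene and the brightest uncalled one, and up to 2 called genes of each comparison list; others are given by range or as chosen later. Alternatives were quantile normalization, pseudocounts of 1 and 50, no filter or the 60th percentile, the mean over probe sets, no cross-hybridizing probe sets (names ending in _x_at or _s_at), eBayes without trend or robust, a replicate block and each array left out; testing every probe set was added after the data were seen. Promoter windows are from RefSeq. Figures used matplotlib 3.10.9.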

Additional observations from a re-analysis of the deposited data

How the results depend on the processing

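The median difference of the mitosis genes was positive under all 15 alternatives, 0.55 to 0.97. The number called higher, 29 in the report, was 18 with eBayes without a trend (19.5% of all genes), and 9 to 47 when each array was left out. It was 20 without a filter (14.6% of all genes), 31 with the stricter one (27.8%), 26 with robust estimation and 29 or 30 under the other scalings, pseudocounts and probe set choices. These were not always the same genes. Of the 29, 27 stayed called with quantile normalization, 26 with the mean over probe sets and 26 without cross-hybridizing probe sets. Smc4 and 8 of the higher genes, Mad2l1, Bub1b, Kif22, Cdc20, Cdc25c, Ube2c, Ccnb2 and Ncapg, were called under every alternative; of the 419 refits of single named genes 37 lost and 10 gained a call, and none turned in sign with a call. The number called lower was 1 to 2 with an array left out. All genes called lower ranged from 1768 to 2740 in those fits. Further mitotic genes called higher ranged from 8 to 35 and called lower from 1 to 3. Replication genes called higher were 4 with eBayes without a trend and 4 to 16 with an array left out, and called lower 0 to 1, also 1 with the replicate block. Cohesin genes called higher ranged from 0 to 2 with an array left out and were 3 with the mean over probe sets or without cross-hybridizing probe sets; 4 were called lower with that mean. Deviations of same-numbered arrays correlated at -0.03 and -0.08 over genes. With 2 transgenic arrays, whose deviations mirror each other, these values cannot decide whether same-numbered arrays form pairs. Transcription regulators called higher, 1 in the report, were 5 with quantile normalization, 3 with the stricter filter and 4 with the mean over probe sets. Of the 11 other regulators of mitotic entry and phosphatases, 4 were called higher in the report. That count was 1 with the mean over probe sets and 2 with eBayes without a trend or the replicate block. With the replicate block, which leaves 1 residual degree of freedom, 21 mitosis genes were called higher (18.3% of all genes) and 2 lower (18.9%), median 0.59. Detection calls were not used here, so the dimmest signals were not set against background.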
